A study of Mus musculus with 12 samples.

Results

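The 10 genes described here encode enzymes that build or cap the sugar chains of cell surfaces and mucins: the fucosyltransferases Fut1, Fut2, Fut4 and Fut8, the galactosyltransferases B3galt5 and C1galt1, the N-acetylgalactosaminyltransferases B4galnt1 and B4galnt2, the sialyltransferase St6gal1 and the sulfotransferase Chst4. They were found by symbol among the 23284 genes of the deposited count table, and all 10 were present and passed the filter on low counts. The symbols were chosen from group values of these same 12 libraries, so the levels and differences of the 10 genes are a description. Calls from the fit over all genes are counted for them below beside the share of all genes, and nothing is read from these counts.

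Transcripts of the terminal ileum, the last segment of the small intestine, were sequenced in 12 mice, with 1 library per mouse and 3 mice in each of 4 groups. The mice were C57BL/6 wild types, Rag1-/- knockouts, which form no mature T or B cells, and Tcra-/- knockouts, which lack conventional alpha beta T cells, in 2 kinds of housing. Co-housed Tcra-/- mice had shared a cage with as many male wild type mice for 4 to 8 weeks, and separately housed Tcra-/- mice had not. All came from Taconic and lived in a specific pathogen free facility, and no other allele or agent is given for any group. Age, the sex of the knockout mice and the number of cages are not given in the labels, and the transcript Xist stayed under 1 CPM (counts scaled to library size) in every library. Cage mates share their housing, so the spread given here is that among mice and not among cages. The separately housed Tcra-/- mice are labelled TCRaSepxT2, TCRaSepxT3 and TCRaSepxT4. Mice of the other groups carry numbers of another form, as in RAG1x3163, TCRaCox3155 and WTB6x3167. What this labelling stands for is not given, and it cannot be told apart from separate housing.

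Fucose is a sugar that epithelial cells of the gut attach to the ends of glycans, where bacteria can bind it or cleave it off and feed on it. Fut1 and Fut2 add it to a terminal galactose and so make the H antigen, and Fut2 is the main enzyme for this step in the gut epithelium. B3galt5 attaches the galactose of type 1 chains, one of the substrates of Fut2. In the mouse small intestine, fucosylation of the epithelium is known to depend on the microbiota and to be induced by interleukin-22 from innate lymphoid cells, a cytokine that signals through STAT3.

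Of the 10 genes, B3galt5, Fut2 and Chst4 differed most in level between wild type and Rag1-/- mice, all 3 upward, and the start regions of B3galt5 and Chst4 are shown because transcription factors can bind there. RefSeq (GRCm38.p6) windows of 300 bases, from 250 before to 50 after a start, were at hand for 8 of the 10 genes, with 15 windows in all. None was at hand for Fut2 and B4galnt1, so their start regions were not searched. Each window was searched on both strands for TTCNNNGAA, the palindromic motif that STAT factors are known to bind, and a match is in capitals. B3galt5 has 3 windows, on the plus strand at chr16:96235551-96235850, chr16:96273263-96273562 and chr16:96280782-96281081, and the window of Chst4 is on the minus strand at chr8:110039285-110039584.
B3galt5 first start: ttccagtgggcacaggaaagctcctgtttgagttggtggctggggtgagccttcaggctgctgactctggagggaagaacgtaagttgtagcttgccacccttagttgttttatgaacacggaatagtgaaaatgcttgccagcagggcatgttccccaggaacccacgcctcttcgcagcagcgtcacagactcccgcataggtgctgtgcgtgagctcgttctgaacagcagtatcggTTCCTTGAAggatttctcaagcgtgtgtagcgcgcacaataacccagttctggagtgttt
B3galt5 middle start: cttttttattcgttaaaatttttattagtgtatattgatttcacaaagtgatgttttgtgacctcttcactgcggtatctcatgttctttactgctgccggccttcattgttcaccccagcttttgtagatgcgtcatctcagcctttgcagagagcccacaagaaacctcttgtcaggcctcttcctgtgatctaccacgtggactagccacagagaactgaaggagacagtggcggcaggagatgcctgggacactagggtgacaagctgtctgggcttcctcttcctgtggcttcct
B3galt5 last start: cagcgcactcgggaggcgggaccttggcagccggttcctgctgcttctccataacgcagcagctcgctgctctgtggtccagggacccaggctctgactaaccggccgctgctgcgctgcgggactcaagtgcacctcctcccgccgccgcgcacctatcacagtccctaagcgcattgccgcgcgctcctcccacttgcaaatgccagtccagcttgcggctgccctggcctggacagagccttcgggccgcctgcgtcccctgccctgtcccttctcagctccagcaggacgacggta
Chst4 start: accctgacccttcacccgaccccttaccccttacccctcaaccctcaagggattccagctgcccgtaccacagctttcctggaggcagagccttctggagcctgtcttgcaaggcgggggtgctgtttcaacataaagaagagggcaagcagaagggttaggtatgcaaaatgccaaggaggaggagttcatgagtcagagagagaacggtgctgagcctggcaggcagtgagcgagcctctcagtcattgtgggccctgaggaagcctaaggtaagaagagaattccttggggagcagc
The first B3galt5 window held 1 match, TTCCTTGAA, which began 10 bases before the start, and the other 14 windows held none. Of all 32851 windows in the table, 8.30% held a match, so 1 match among 15 windows is a description of these letters and of no bound factor.

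The deposited table places the 10 genes on the mm9 build, an older assembly than that of the sequences above. On it B3galt5 spans chr16:96457408-96541465 on the plus strand in 5 merged exon blocks and Fut2 spans chr7:52903965-52921678 on the minus strand in 2. Fut1 lies near Fut2 at chr7:52872976-52876427 on the plus strand, and Fut4 at chr9:14552903-14556566 on the minus strand has a single exon block. Fut8 takes up chr12:78339091-78576983 on the plus strand, and Chst4 takes up chr8:112552975-112563234 on the minus strand. B4galnt1 is at chr10:126602212-126609396 (plus), B4galnt2 at chr11:95724873-95776185 (minus), St6gal1 at chr16:23224813-23360423 (plus) and C1galt1 at chr6:7795224-7822042 (plus). None of the 10 shares exonic bases with another gene of the table.

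Library totals ran from 37061276 to 50581616 counts. Values in CPM are scaled to library sizes corrected with TMM factors, which ran from 0.926 to 1.07 and were lowest in Rag1-/- mice. Without that correction the median log2 fold change of all genes moved from -0.02 to -0.19 for Rag1-/- against wild type mice and from -0.01 to -0.12 between the housings of Tcra-/- mice. Rag1 itself had 236 reads in the mice labelled Rag1-/- and 0 in the other 9 mice. Each mouse labelled Rag1-/- had 69 to 92 of these reads, so they set that group apart from the other 9 mice. Which exons the knockout removes is not given, so the reads do not show the allele itself. The B cell marker Cd79a ranged from 0.0245 to 0.149 CPM in Rag1-/- mice, from 33.6 to 36.5 CPM in wild type mice and from 8.47 to 31.2 CPM in all Tcra-/- mice.

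B3galt5 and Fut2, the enzyme pair of the type 1 H antigen, were high in every Rag1-/- and co-housed Tcra-/- mouse and low in every wild type and separately housed Tcra-/- mouse. B3galt5 stood at 844, 1146 and 823 CPM in the 3 Rag1-/- mice and at 688, 702 and 753 CPM in the 3 co-housed Tcra-/- mice. It stood at 8.59, 8.79 and 12.3 CPM in the wild type mice and at 3.31, 2.28 and 1.64 CPM in the separately housed Tcra-/- mice. The 4 groups thus did not overlap for B3galt5, with Rag1-/- mice highest and separately housed Tcra-/- mice lowest. Group means were 938 ± 181, 714 ± 34.6, 9.89 ± 2.07 and 2.41 ± 0.84 CPM in the order just given (SD, n = 3 each). The fitted difference was 94.8-fold for Rag1-/- over wild type (log2 6.57, SE 0.25) and 296-fold for co-housed over separately housed Tcra-/- mice (log2 8.21, SE 0.27). Because these are whole pieces of ileum, fewer cells of a type and less RNA per cell cannot be told apart for this or any other gene below.

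Fut2, which transfers fucose to terminal galactose, followed the same order of groups. Rag1-/- mice had 467, 605 and 373 CPM and co-housed Tcra-/- mice had 300, 237 and 471 CPM. Wild type mice had 4.61, 6.12 and 9.14 CPM, and separately housed Tcra-/- mice had 2.79, 3.35 and 1.71 CPM. The Rag1-/- and co-housed groups overlapped, while both lay above the wild type group and the wild type group lay above the separately housed one. Means were 482 ± 116 CPM in Rag1-/-, 336 ± 121 in co-housed Tcra-/-, 6.62 ± 2.31 in wild type and 2.62 ± 0.84 in separately housed Tcra-/- mice (SD, n = 3 each). Fut2 was 72.7-fold higher in Rag1-/- than in wild type mice (log2 6.18, SE 0.42) and 129-fold higher in co-housed than in separately housed Tcra-/- mice (log2 7.01, SE 0.45).

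Against wild type mice, separately housed Tcra-/- mice had 4.09-fold less B3galt5 (log2 -2.03, SE 0.24) and 2.54-fold less Fut2 (log2 -1.34, SE 0.42). Co-housed Tcra-/- mice had 72.2-fold more B3galt5 (log2 6.17, SE 0.24) and 50.7-fold more Fut2 (log2 5.66, SE 0.41) than wild type mice. These comparisons share the wild type mice with the Rag1-/- comparison. The wild type and separately housed groups did not overlap for either gene, though for Fut2 the nearest mice stood at 4.61 and 3.35 CPM. The share of all genes without overlap between these groups was not counted. Among all genes of the table ranked by level per length, the median rank of B3galt5 was 509 in Rag1-/- mice and 595 in co-housed Tcra-/- mice, against 10932 in wild type and 13393 in separately housed Tcra-/- mice. Fut2 had median ranks of 493, 785, 10346 and 11875 in the same order of groups.

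**Figure D1:**
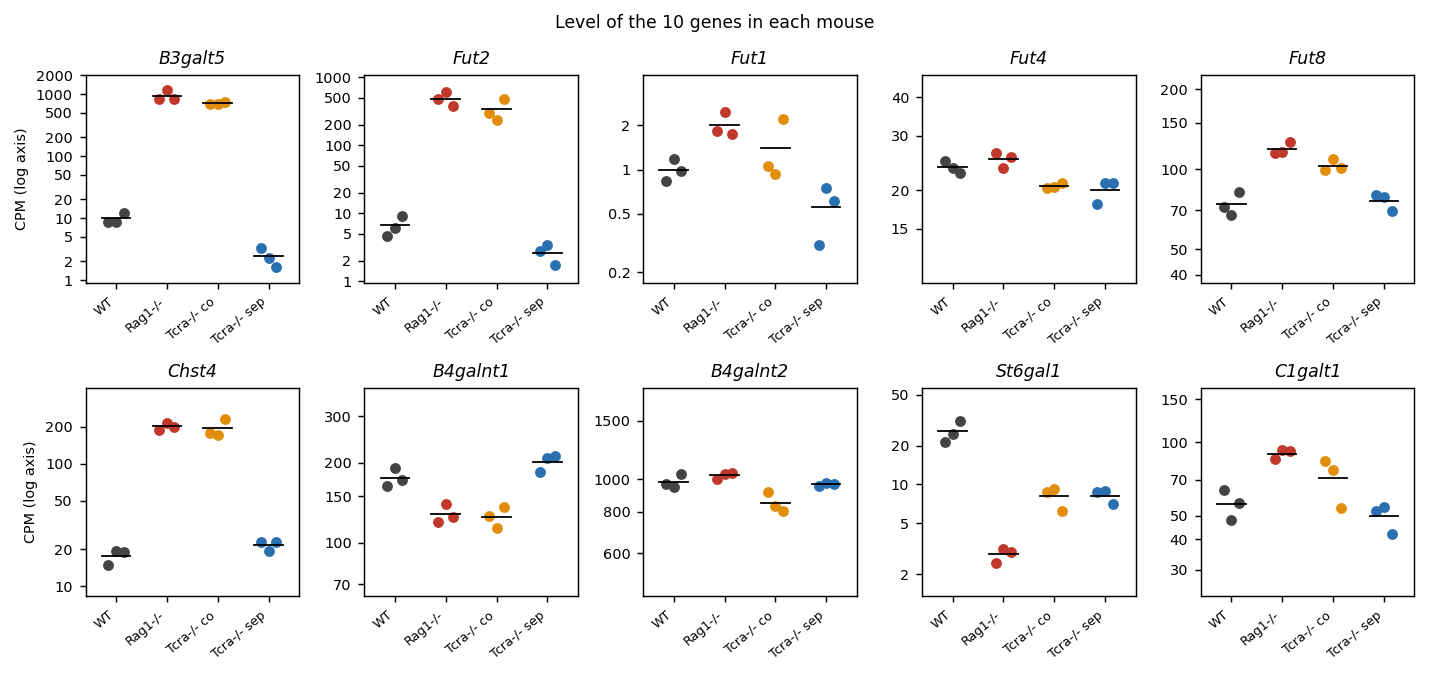
Level of each of the 10 genes in every mouse, in CPM on a log axis whose range differs between panels; points are mice and lines are group means (WT, wild type; co, co-housed; sep, separately housed). B3galt5, Fut2 and Chst4 form a high pair of groups (Rag1-/- and co-housed Tcra-/-) and a low pair (wild type and separately housed Tcra-/-), while St6gal1 is highest in wild type mice, at 25.8 CPM on average.

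Chst4, a sulfotransferase that adds sulfate to N-acetylglucosamine and is best known for making L-selectin ligands in high endothelial venules of lymph nodes, had the same 2 high groups. It stood at 188, 217 and 201 CPM in Rag1-/- mice and at 180, 172 and 232 CPM in co-housed Tcra-/- mice. Wild type mice had 14.96, 19.2 and 19.0 CPM, and separately housed Tcra-/- mice had 22.8, 19.5 and 22.9 CPM. The 2 high groups overlapped, and unlike for Fut2 the separately housed mice all lay above the wild type mice. The nearest of these stood at 19.5 and 19.2 CPM, and the fitted difference was small (log2 0.29, SE 0.12). Chst4 was 11.4-fold higher in Rag1-/- than in wild type mice (log2 3.51, SE 0.13) and 8.96-fold higher in co-housed than in separately housed Tcra-/- mice (log2 3.16, SE 0.13). The 4 genes listed as high endothelial venule markers summed to 5.61 to 6.21 CPM in Rag1-/-, 8.10 to 12.3 in wild type, 8.45 to 12.8 in co-housed and 4.07 to 7.33 in separately housed Tcra-/- mice. Cdh5, which is not particular to these venules, made up 3.18 to 4.15 CPM in Rag1-/- and 3.31 to 4.87 CPM in wild type mice. Against wild type mice, Glycam1 and Madcam1 were lower in Rag1-/- mice (0.0474 to 0.0854 against 0.720 to 1.95 CPM, and 0.948 to 1.39 against 3.51 to 5.42 CPM), while Darc and Cdh5 overlapped. Between the housings, Madcam1 was higher in co-housed mice (3.26 to 3.98 against 0.984 to 1.63 CPM), as Chst4 was, while Glycam1 (0.251 to 0.718 against 0.131 to 0.263 CPM) and Cdh5 overlapped and Darc was higher (1.06 to 2.51 against 0.591 to 1.03 CPM). The part of such venules in the Chst4 difference was not tested.

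Fut1, the other enzyme that makes the H antigen, was rare. Its 3 mice per group summed to 261 reads in Rag1-/-, 168 in co-housed Tcra-/-, 133 in wild type and 74 in separately housed Tcra-/- mice. Rag1-/- mice had 1.84, 2.46 and 1.75 CPM, wild type mice had 0.83, 1.18 and 0.98, co-housed Tcra-/- mice had 1.06, 0.94 and 2.23, and separately housed Tcra-/- mice had 0.31, 0.75 and 0.61. The Rag1-/- mice all lay above the wild type mice, and the co-housed all above the separately housed mice, by differences of 2.02-fold (log2 1.01, SE 0.34) and 2.54-fold (log2 1.34, SE 0.37). On a scale corrected for transcript length as well as library size (RPKM), the median ratio of Fut2 to Fut1 was 221 in Rag1-/- mice and 228 in co-housed Tcra-/- mice, against 4.99 in wild type and 4.05 in separately housed Tcra-/- mice.

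Fut4 attaches fucose to N-acetylglucosamine inside the chain, as in Lewis x, and differed little between groups. Its mean was 25.2 ± 1.38 CPM in Rag1-/-, 23.8 ± 1.04 in wild type, 20.6 ± 0.39 in co-housed and 20.03 ± 1.75 in separately housed Tcra-/- mice (SD, n = 3 each). Rag1-/- and wild type mice overlapped, as did both Tcra-/- groups, while all 6 Tcra-/- mice lay below all 6 other mice. Fut8 is the enzyme of core fucosylation, which adds fucose to the innermost sugar of N-glycans. It was measured at 115, 117 and 127 CPM in Rag1-/- mice and 99.6, 109 and 101 CPM in co-housed Tcra-/- mice, all above the wild type mice (72.1, 67.4 and 82.0 CPM) and the separately housed Tcra-/- mice (80.2, 78.8 and 69.6 CPM). The differences were 1.62-fold for Rag1-/- over wild type mice (log2 0.69, SE 0.08) and 1.36-fold for co-housed over separately housed mice (log2 0.44, SE 0.08).

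Across the family of 9 fucosyltransferase genes in the table, Fut2 made up most of the transcripts in the high groups and few in the low groups. Summed RPKM of the 9 genes was 209 ± 39.7 in Rag1-/-, 153 ± 41.9 in co-housed Tcra-/-, 31.4 ± 2.53 in wild type and 29.4 ± 1.66 in separately housed Tcra-/- mice (SD, n = 3 each). Fut2 took 75.5 to 84.0% of that sum in Rag1-/- mice and 69.2 to 82.2% in co-housed Tcra-/- mice. In wild type mice it took 5.24 to 9.33%, and in separately housed Tcra-/- mice 2.16 to 3.81%. Fut8 held the largest share in the low groups, with means of 58.9% in wild type and 65.0% in separately housed Tcra-/- mice.

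**Figure D2:**
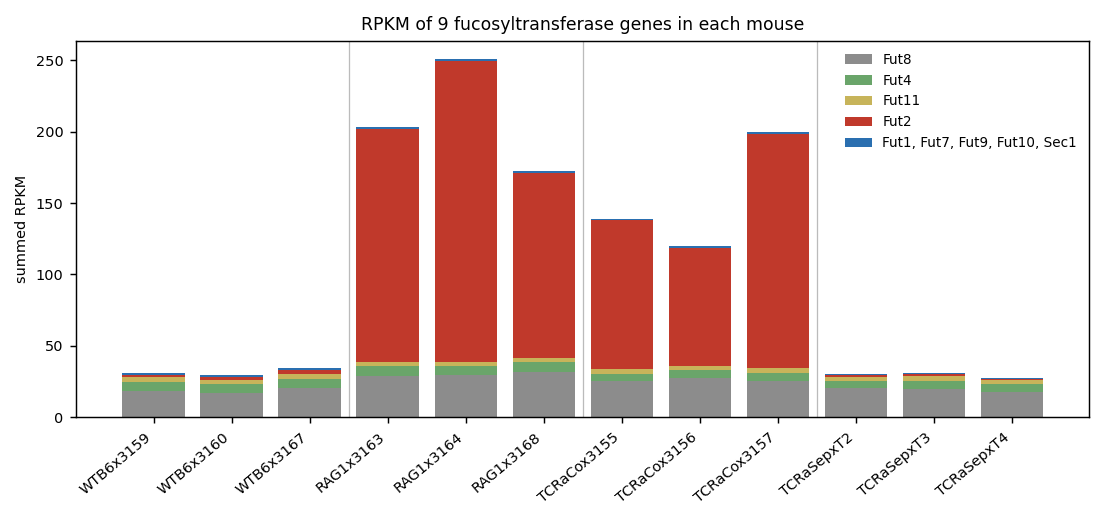
Stacked RPKM (reads scaled to library size and to the length of merged exons, linear axis from 0) of the 9 fucosyltransferase genes in each mouse, with 3 mice between each pair of grey lines. Fut2 (red) fills 69.2 to 84.0% of the bar in Rag1-/- and co-housed Tcra-/- mice and 2.16 to 9.33% in the other 6 mice.

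C1galt1 makes the core 1 structure on which most mucin O-glycans are built. It was at 85.0, 92.6 and 91.7 CPM in Rag1-/- mice, all above the 63.5, 48.0 and 56.5 CPM of wild type mice, a 1.60-fold difference (log2 0.68, SE 0.15). Co-housed Tcra-/- mice had 83.4, 77.2 and 54.0 CPM and separately housed mice had 52.4, 54.3 and 42.3 CPM. These groups overlapped through 1 co-housed mouse, TCRaCox3157, at 54.0 CPM. Among the 6 β1,3-galactosyltransferase genes, C1galt1 held 74.8% of the summed RPKM in wild type and 75.2% in separately housed Tcra-/- mice, while B3galt5 held 77.1% in Rag1-/- and 76.2% in co-housed Tcra-/- mice (means of 3 mice). Chst4 likewise held 94.4% and 91.6% of the summed RPKM of 14 Chst sulfotransferase genes in the high groups, against 45.5% in wild type and 52.7% in separately housed mice.

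B4galnt1, the synthase of the gangliosides GM2 and GD2, was lower where B3galt5 and Fut2 were high. Rag1-/- mice had 120, 140 and 125 CPM against 163, 191 and 173 CPM in wild type mice, and co-housed Tcra-/- mice had 126, 114 and 137 CPM against 185, 209 and 213 CPM in separately housed ones. Neither pair of groups overlapped. The differences were 1.37-fold lower in Rag1-/- than in wild type mice (log2 -0.45, SE 0.09) and 1.61-fold lower in co-housed than in separately housed mice (log2 -0.69, SE 0.09).

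B4galnt2 adds the N-acetylgalactosamine of the Sd(a) antigen and is well known for its expression in the mouse gut. It was the highest of the 10 genes by RPKM in every group, at 241 in wild type, 252 in Rag1-/-, 208 in co-housed and 236 in separately housed Tcra-/- mice. Its levels were 1003 to 1047 CPM in Rag1-/- mice and 952 to 1036 CPM in wild type mice, which overlapped. Co-housed Tcra-/- mice, at 804 to 919 CPM, all lay below the separately housed mice at 956 to 975 CPM (log2 -0.18, SE 0.07).

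St6gal1 caps N-glycans with sialic acid, is expressed by B cells among other cells, and had an order of groups of its own. Wild type mice had 21.3, 24.9 and 31.3 CPM, and Rag1-/- mice had 2.45, 3.15 and 3.01 CPM. The 2 Tcra-/- groups lay between them and overlapped, with 8.77, 9.24 and 6.26 CPM in co-housed and 8.67, 8.92 and 7.02 CPM in separately housed mice. St6gal1 was 8.98-fold lower in Rag1-/- than in wild type mice (log2 -3.17, SE 0.18) and differed by log2 -0.02 (SE 0.17) between the housings. All 9 B cell markers and all 8 T cell markers also fell in Rag1-/- against wild type mice (edgeR quasi-likelihood test, adjusted p under 0.01). The B cell markers summed to 3.03 to 4.26 CPM in Rag1-/-, 168 to 207 in wild type, 118 to 172 in co-housed and 53.5 to 95.0 CPM in separately housed Tcra-/- mice. The T cell markers summed to 6.56 to 8.99, 71.5 to 114, 25.0 to 56.2 and 10.5 to 11.4 CPM in the same order, and the part of either cell type in the St6gal1 difference was not tested.

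Of the 10 genes, 5 were called higher (B3galt5, Fut2, Fut8, Chst4 and C1galt1) and 2 lower (B4galnt1 and St6gal1) in Rag1-/- than in wild type mice, where a call is a Benjamini-Hochberg adjusted p under 0.01 over all genes tested. Over the 15866 genes tested, 9.42% were called higher and 11.5% lower. Groups did not overlap for 6 of the 10 upward and 2 downward, against 22.2% and 23.5% of the genes tested. Between the housings of Tcra-/- mice, with co-housed set against separately housed, 5 were called higher and 1 lower, beside 21.1% and 17.7% of the genes tested, and 5 did not overlap upward and 2 downward, beside 30.1% and 27.8%. The median log2 fold change of the 10 genes was 0.69 for Rag1-/- against wild type mice and 0.48 for the housing comparison. Since the genes were listed with these values known, nothing is read from these counts. Without the TMM correction, calls over all genes turned from 1494 higher and 1820 lower to 713 and 3218 for Rag1-/- mice, and from 3347 and 2809 to 2480 and 3695 for co-housed mice. Under that scaling the small differences of Fut4 (log2 -0.08) and B4galnt2 (log2 -0.10) between Rag1-/- and wild type mice changed sign, as did that of Fut4 between the housings (log2 -0.07), and no other of the 20 differences in the 2 stated comparisons did. The housing difference of B4galnt2 went from log2 -0.18 to -0.30.

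**Figure D3:**
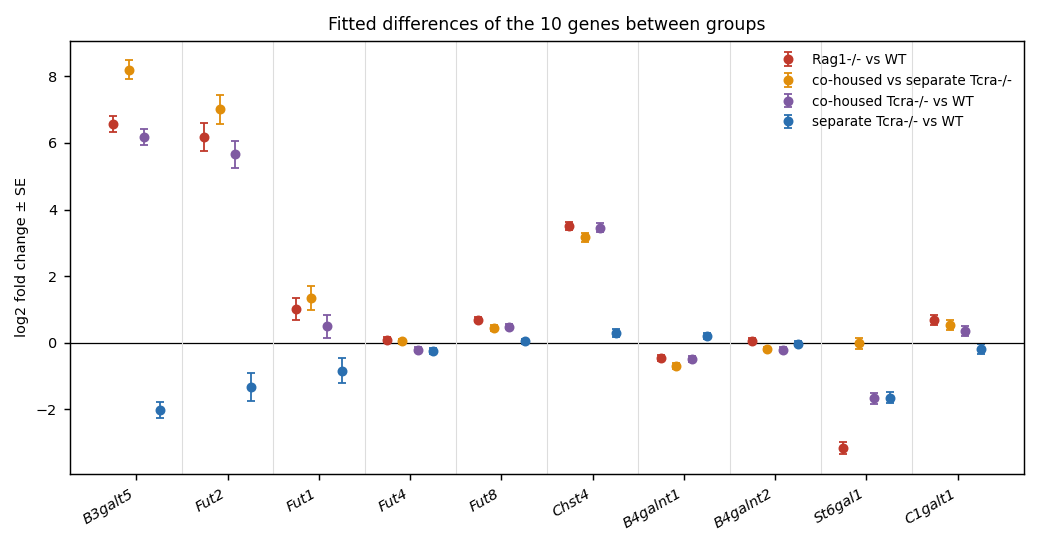
Fitted log2 fold change of the 10 genes in 4 comparisons, with bars of 1 standard error from the model over all 12 libraries. B3galt5 and Fut2 lie above 5 in the 3 comparisons that set a high group against a low group, and St6gal1 lies below 0 in every comparison with wild type mice.

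Within groups, several genes were high in the same mouse. RAG1x3164 had the highest level of its group for 7 of the 10 genes, among them B3galt5, Fut2, Fut1 and Chst4. TCRaCox3157 was highest of the co-housed mice for 6, among them the same 4, and lowest for C1galt1, B4galnt2 and St6gal1. The summed markers of enterocytes were lower where B3galt5 and Fut2 were high. These 8 markers reached 18657 to 21549 CPM in Rag1-/-, 19521 to 22826 in co-housed Tcra-/-, 23555 to 25763 in wild type and 27610 to 31830 CPM in separately housed Tcra-/- mice, and 3 of them fell in Rag1-/- mice and 5 in co-housed mice (edgeR). Single markers did not all follow the sum: Anpep was at 8115 to 9189 CPM in Rag1-/- and 6517 to 7696 CPM in wild type mice, and the ileal gene Fabp6 at 3734 to 4018 CPM in co-housed and 3438 to 3626 CPM in separately housed mice. The 7 goblet cell markers summed to 10231 to 10863, 10883 to 11633, 12970 to 14652 and 15203 to 16170 CPM in the same order, with 1 fall in Rag1-/- mice and 1 rise and 3 falls in co-housed mice. The 4 tuft cell markers summed to 14.6 to 17.7 CPM in Rag1-/-, 15.6 to 16.2 in co-housed, 27.4 to 31.2 in wild type and 32.5 to 45.6 CPM in separately housed mice, with 2 falls in Rag1-/- and 3 in co-housed mice. Of 5 enteroendocrine markers, 2 fell in Rag1-/- and 3 in co-housed mice. Of 5 myeloid markers, 1 rose in Rag1-/- and 5 in co-housed mice, and none of 6 Paneth cell markers passed in either comparison. No marker was at 0 in all mice, and the part of cell composition in the differences of the 10 genes was not tested.

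Other genes of the pathways were listed by family and role with earlier results of these data known, so shares of the lists are a description. There were 122 genes in 6 lists, and 106 of them were tested. Of these, 15 rose and 20 fell in Rag1-/- against wild type mice (14.2% and 18.9%, beside 9.42% and 11.5% of all genes tested), and 21 rose and 22 fell in co-housed against separately housed Tcra-/- mice (19.8% and 20.8%, beside 21.1% and 17.7%). Without the TMM correction the counts in Rag1-/- mice were 12 and 30. In all, 13 rose in both comparisons, 11 fell in both and 2, Ggta1 and St6galnac4, moved in opposite directions, where the rise of St6galnac4 between the housings was lost without single mice (adjusted p up to 0.0369) and without the TMM correction (adjusted p = 0.0499). Adjusted p-values below are from the edgeR quasi-likelihood test over all genes.

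Among the genes that supply fucose, Gmds and Slc35c1 rose in both comparisons, while Tsta3, Fuk and Fpgt passed in neither. In Rag1-/- mice these 3 differed by log2 0.09, 0.22 and -0.12, and in co-housed mice by -0.01, 0.22 and -0.21. Of 13 tested genes of fucosylation beside the 4 fucosyltransferases, 3 rose and 0 fell in Rag1-/- mice (list median log2 0.07), and 4 rose and 2 fell in co-housed Tcra-/- mice (median -0.01). Gmds, which makes the precursor of GDP-fucose from GDP-mannose, was at 611 ± 34.5 CPM in Rag1-/- and 247 ± 45.8 in wild type mice (log2 1.31, SE 0.13, adjusted p = 2.5e-06). Co-housed Tcra-/- mice had 610.0 ± 71.5 CPM of Gmds against 135 ± 17.1 in separately housed ones (log2 2.18, SE 0.13, adjusted p = 1.2e-08). Slc35c1, the transporter that brings GDP-fucose into the Golgi, rose by log2 0.49 (adjusted p = 4.7e-05) and 0.57 (adjusted p = 5.1e-06), and Fuca1, the lysosomal fucosidase, by 0.41 (adjusted p = 0.00053, and 0.0120 without the TMM correction) and 0.55 (adjusted p = 1.5e-05). Slc35c2 fell by 0.83 (adjusted p = 2.5e-05) and Pofut1, which fucosylates Notch, by 0.28 (adjusted p = 0.0092, and up to 0.0539 without single mice) in co-housed mice. Fut9 and Sec1 were below the filter on low counts.

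B3gnt7, B4galt1 and B3gnt5, which extend chains, rose in both comparisons. The list of chain extension was taken partly by family name alone, so not all of its genes extend such chains. Of 21 of its genes tested, 4 rose and 2 fell in Rag1-/- mice (median log2 0.08), and 7 rose and 2 fell in co-housed Tcra-/- mice (median 0.05). B3gnt7, which adds N-acetylglucosamine to galactose, was at 326 ± 59.8 CPM in Rag1-/- against 40.3 ± 7.98 in wild type mice (log2 3.01, SE 0.18, adjusted p = 1.8e-07), and at 338 ± 50.5 against 17.7 ± 1.54 CPM in the 2 housings (log2 4.25, SE 0.19, adjusted p = 9.8e-09). B4galt1, a galactosyltransferase of type 2 chains, rose by log2 1.34 (adjusted p = 1.4e-07) and 1.51 (adjusted p = 2.1e-08), and B3gnt5 by 0.85 (adjusted p = 0.00027) and 1.86 (adjusted p = 6.6e-08). Ggta1, which makes the alpha-galactose epitope, fell by 1.11 in Rag1-/- mice (adjusted p = 8.1e-06), and B3gnt8 fell by 1.55 (adjusted p = 0.00038). B3gnt1 and B4galt7, both listed by family name, fell by 0.67 and 0.37 in co-housed mice (adjusted p = 0.00014 and 0.0047). The call of B4galt7 was lost without single mice (adjusted p up to 0.0233).

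Of 20 tested genes of mucin O-glycans beside C1galt1, 3 rose and 0 fell in Rag1-/- mice (median log2 0.10), and 3 rose and 4 fell in co-housed Tcra-/- mice (median -0.20). Galnt3, which starts O-glycans, rose in both comparisons, by log2 0.76 (adjusted p = 7.9e-06) and 0.64 (adjusted p = 2.0e-05). Gcnt3, the mucin-type core 2 and core 4 enzyme, rose by 1.27 in Rag1-/- mice (adjusted p = 0.0012, and 0.0168 in the 6 libraries alone), and Gcnt1, the other core 2 enzyme, rose from 10.8 ± 0.32 to 58.4 ± 8.27 CPM between the housings (log2 2.43, SE 0.23, adjusted p = 9.8e-06). Gcnt1 did not pass in Rag1-/- mice, at 32.3 ± 11.3 CPM against 48.4 ± 7.87 in wild type mice (log2 -0.58, adjusted p = 0.068), so separately housed mice had the lowest level of the 4 groups. Gcnt3 did not pass between the housings (log2 0.70, adjusted p = 0.019). C1galt1c1, the chaperone that C1galt1 needs, rose by 0.44 in co-housed mice (adjusted p = 0.00097). Galnt11, Galnt7 and Gcnt4 fell by 0.74, 0.45 and 0.30 in co-housed mice (adjusted p = 6.7e-05, 0.00033 and 0.00046).

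Of 22 tested sialylation genes beside St6gal1, 8 fell and 2 rose in Rag1-/- mice (median log2 -0.45), and 6 fell and 3 rose in co-housed Tcra-/- mice (median -0.12). St3gal1, which caps the core 1 O-glycan with sialic acid, was at 11.7 ± 0.90 CPM in Rag1-/- and 33.3 ± 3.29 in wild type mice (log2 -1.51, SE 0.11, adjusted p = 6.3e-08). It also fell in co-housed mice, by log2 0.49 (adjusted p = 0.0014). St3gal6 fell by log2 0.96 (adjusted p = 2.3e-05) and 1.83 (adjusted p = 1.8e-08), and St6galnac2 by 0.75 (adjusted p = 2.4e-05) and 1.35 (adjusted p = 2.8e-08). Nans and Cmas, which make and activate sialic acid, rose in Rag1-/- mice by 0.53 (adjusted p = 5.6e-06) and 0.45 (adjusted p = 7.1e-05), and in co-housed mice by 0.70 (adjusted p = 1.4e-07) and 0.40 (adjusted p = 0.00011). The sialidase Neu1 fell by 0.48 in Rag1-/- mice (adjusted p = 0.00085) and by 0.73 in co-housed mice (adjusted p = 9.3e-06).

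Of 20 tested sulfation genes beside Chst4, 7 fell and 2 rose in Rag1-/- mice (median log2 -0.48), and 5 fell and 2 rose in co-housed Tcra-/- mice (median -0.06). Chst3, a chondroitin sulfotransferase, was at 0.26 ± 0.07 CPM in Rag1-/- against 10.03 ± 0.68 in wild type mice (log2 -5.24, SE 0.27, adjusted p = 1.7e-09), beside the B and T cell markers that fell in the same mice, whose part in it was not tested. Chst11 and Chst10 fell there by 1.60 (adjusted p = 1.2e-05) and 2.69 (adjusted p = 2.3e-05). Chst13 rose but was rare, with 91 reads in Rag1-/- and 7 in wild type mice (adjusted p = 0.00039), and 93 in co-housed and 4 in separately housed Tcra-/- mice (adjusted p = 5.2e-05). Slc35b3, a transporter of the sulfate donor, rose by 0.79 (adjusted p = 8.9e-06) and 0.54 (adjusted p = 0.00015). Papss1 and Papss2, the synthases of that donor, fell in both comparisons. The falls were 0.51 (adjusted p = 0.0004) and 0.32 (adjusted p = 0.0038) in Rag1-/- mice. In co-housed mice they were 1.00 (adjusted p = 2.4e-07) and 0.68 (adjusted p = 2.2e-06).

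The list of glycolipids held 10 tested genes beside B4galnt1, among them some taken by family name alone, such as B4galnt3. Of the 10, 1 rose and 3 fell in Rag1-/- mice (median log2 -0.21), and 2 rose and 3 fell in co-housed Tcra-/- mice (median -0.05). B4galnt3 was the 1 gene that rose in Rag1-/- mice, so that count is not one of glycolipid enzymes. It rose by log2 0.84 (adjusted p = 5.2e-06) there and by 0.49 (adjusted p = 0.00041) in co-housed mice. Ugcg, which makes glucosylceramide, the first step of most glycolipids, fell by 0.53 (adjusted p = 0.00089) and 0.60 (adjusted p = 0.00014). B4galt6, the lactosylceramide synthase, fell by 0.47 (adjusted p = 0.00028) and 1.05 (adjusted p = 4.2e-08).

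**Figure D4:**
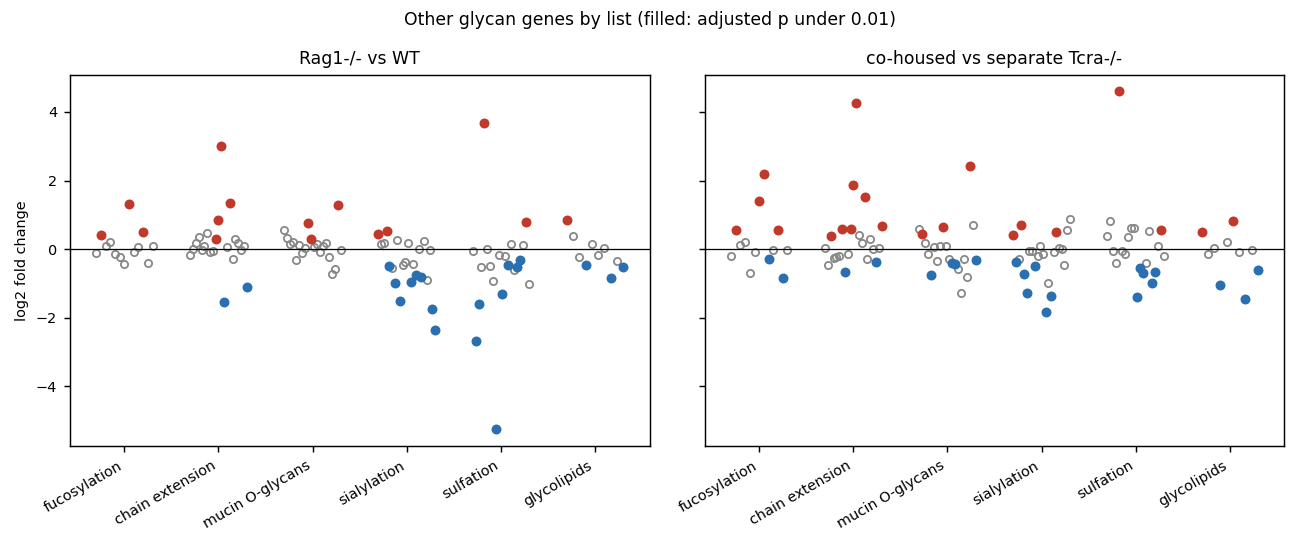
Log2 fold change of the 106 tested glycan genes other than the 10, by list, in the 2 stated comparisons; filled points passed an adjusted p under 0.01 (red higher, blue lower) and open points did not. The lists of sialylation and sulfation hold 8 and 7 of the 20 genes that fell in Rag1-/- mice.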

How the data were processed

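RNA of the terminal ileum was taken up in Trizol and made into stranded mRNA libraries with an Illumina kit, per the labels' protocols. Per the submitters' processing notes, the tools were bcl2fastq, TopHat2 2.0.11, Bowtie2 2.2.2.0, featureCounts of Subread 1.4.5-p1 and DESeq2 1.12.3, with the build mm9. The authors deposited raw, whole-number counts for each gene, with the length of its merged exons in bases per the file headers. The annotation, strand setting and handling of multi-mapped reads at counting were not given in the sources used here. Of the distinct 50-base stretches of the GENCODE M21 transcripts, Fut2 shares 2.90% with Sec1 and Fut8 shares 3.35% with other genes, and the other 8 members share none.

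All 12 libraries, mapped to groups by their labels, were fitted in edgeR 4.0.16 (R 4.3.3) with filterByExpr (15866 of 23284 genes kept), TMM factors, 1 term per group and a robust two-sided quasi-likelihood test with 8 residual degrees of freedom. A gene was called where its adjusted p (Benjamini-Hochberg) was under 0.01, the rate that the series' design text states. Standard errors (SE) were taken as the fold change on the log2 scale over the root of its F statistic. RPKM was computed from the counts and deposited lengths. The fit was tested on simulated data. Alternatives were library size alone, DESeq2 1.42.0, other filters on low counts, the 6 libraries of a comparison alone and leaving out each mouse.

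The members and lists were chosen with earlier results of these data known. Named genes were all 10 members, up to 3 called genes by smallest p per pathway list, direction and stated comparison, the gene on either side of each member, and the 5 genes most like B3galt5 and Fut2 by Pearson's r over the 12 libraries among genes with mean log2 CPM (prior count 2) above 1. Not every gene that this rule names is reported here. Rag1 was named as a label check. Cd79a, Xist, Tsta3, Fuk, Fpgt and single venule and enterocyte markers were named after their values were seen.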

Additional observations from a re-analysis of the deposited data

How the results depend on the processing

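Counts of genes called in each stated comparison stayed within 1.5 times their reported value under every alternative: 2434 to 3991 for Rag1-/- against wild type mice and 5002 to 6689 between the housings of Tcra-/- mice. Pathway genes called in Rag1-/- mice ran from 12 to 16 higher and from 17 to 30 lower, and those called between the housings from 18 to 22 higher and from 18 to 25 lower. With library size alone, the log2 differences of Fut4, Fut8 (0.69 to 0.53), B4galnt1 (-0.45 to -0.62) and B4galnt2 in Rag1-/- mice, and of B4galnt2 between the housings (-0.18 to -0.30), moved beyond the spread between mice, and those of the other members in these 2 comparisons did not. Under that scaling Fuca1 and Galnt4 lost their call in Rag1-/- mice (adjusted p = 0.0120 and 0.121, edgeR), and Gcnt3 lost its call in the 6 libraries alone (adjusted p = 0.0168). Between the housings, Pofut1, B4galt7 and St6galnac4 were near the threshold and lost their calls without single mice of either group: adjusted p then ran from 0.0166 to 0.0539 for Pofut1, from 0.0122 to 0.0233 for B4galt7 and from 0.0176 to 0.0369 for St6galnac4. In the 6 libraries alone it was 0.0189, 0.0171 and 0.0271, without a filter it was 0.0128 for Pofut1 and 0.0145 for St6galnac4, and with library size alone it was 0.0499 for St6galnac4. The cause was not tested. Fut1, at 74 to 261 reads per group, is the member that depth limits most. No paired analysis was possible because the labels give every mouse its own number and tie no mice of different groups together.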

Other observations

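Over the 12 libraries, the genes most like B3galt5 among 12249 compared were Wtip (Pearson's r of log2 CPM 0.999), Gdpd1 (0.996), Gsr (0.995), Fut2 (0.995) and B3gnt7 (0.995). Those most like Fut2 were Steap1 (0.996), Ociad2 (0.995), B3galt5 (0.995), Gsr (0.994) and Elovl7 (0.994). The 12 points share the 4 groups, so r is a description and carries no p. Ranked by Spearman's rho instead, 0 of the 5 genes most like B3galt5 and 1 of the 5 most like Fut2, Gsr, were shared. Wtip stood at 53.7 CPM in Rag1-/-, 49.7 in co-housed Tcra-/-, 9.999 in wild type and 5.62 in separately housed Tcra-/- mice, and Gsr, which encodes glutathione reductase, at 502, 459, 210 and 153 CPM.

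Of the 20 genes next to the 10 members in the table, 13 were tested, and 4 rose in both comparisons (edgeR quasi-likelihood test, adjusted p under 0.01), beside 9.42% of all genes tested that rose in Rag1-/- mice and 21.1% that rose in co-housed mice. Tat, which encodes tyrosine aminotransferase and lies 29270 bases from Chst4, rose by log2 4.10 (SE 0.42) in Rag1-/- mice and 5.58 (SE 0.47) in co-housed Tcra-/- mice. Zfp612, on the other side of Chst4 at 40399 bases, rose by 1.19 and 1.27. Asns, the asparagine synthetase 152041 bases from C1galt1, rose by 1.65 and 1.74, and Igsf5, 41898 bases from B3galt5, by 0.59 and 0.51. Sh3bgr, 6867 bases from B3galt5 on its other side, fell by 0.54 in co-housed mice and differed by -0.06 (SE 0.12) in Rag1-/- mice. Sec1, 11378 bases from Fut2 and similar to it in sequence, had 56 reads over all 12 libraries.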
